A study of Mus musculus with 4 samples.

Results

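The genes described here are 6 keratins of simple and stratified epithelia (Krt7, Krt8, Krt14, Krt17, Krt18 and Krt19) and 4 genes of the desmosome (Dsp, Jup, Pkp2 and Dsg2), 10 of the 53379 genes in the files. They were taken by name, matched exactly to the gene symbol, and they were picked with their PD800 against PD100 values already known. Their fold changes are therefore given as a description, without a test. Each of the 10 passed the filter on low counts, which 19148 genes passed in all.

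Bulk RNA came from DKO741, a mouse embryonic stem cell (mESC) line made from E14 cells by targeting the telomerase RNA gene Terc on both alleles. Both groups carry the same knock-out: 2 libraries were from cells at population doubling 100 (PD100, before the alternative lengthening of telomeres, ALT) and 2 from the same line at PD800, when telomeres were kept by ALT without telomerase. The study and the sample titles count 100 and 800 in population doublings, whereas another label speaks of passages. The line is 1 clone, so that ALT, the doublings spent in culture and selection within the clone cannot be told apart, and no Terc+/+ RNA was analysed here. Stocks were kept on mouse embryonic fibroblasts, but feeder-free cells were used for the extraction. The study calls the libraries of a group biological duplicates, and neither it nor the labels say whether they came from separate cultures, so the p-values below cover the spread between these libraries only.

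Keratins build the intermediate filaments of epithelial cells. They are obligate heteropolymers, in which an acidic type I keratin (Krt14, Krt17, Krt18, Krt19) pairs with a basic type II keratin (Krt7, Krt8). In the desmosome, cadherins of the desmoglein and desmocollin families bridge neighbouring cells, plakoglobin (Jup) and the plakophilins bind their tails, and desmoplakin (Dsp) ties the complex to the keratin filaments. Krt8 and Krt18 are the first keratins made by the embryo, in trophectoderm and later in primitive endoderm, and they are low in the cells of the inner cell mass from which mESCs derive.

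The promoters of Krt7, Krt8 and Krt18, which lie near one another on chromosome 15, are shown because each holds the letters CACCTG, an E-box that repressors of the Snai and Zeb families are known to bind. The 250 bases before the RefSeq start are printed in the direction of transcription, with the E-box in capitals, for Krt7 (chr15:101412153-101412402, plus strand), Krt8 (chr15:102004343-102004592, minus strand) and Krt18 (chr15:102027966-102028215, plus strand) of GRCm38.p6.
Krt7: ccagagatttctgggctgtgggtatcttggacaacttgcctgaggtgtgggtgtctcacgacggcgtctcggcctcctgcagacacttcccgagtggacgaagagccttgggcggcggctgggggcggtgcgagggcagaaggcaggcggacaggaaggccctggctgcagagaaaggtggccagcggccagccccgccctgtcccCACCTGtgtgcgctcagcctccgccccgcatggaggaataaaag
Krt8: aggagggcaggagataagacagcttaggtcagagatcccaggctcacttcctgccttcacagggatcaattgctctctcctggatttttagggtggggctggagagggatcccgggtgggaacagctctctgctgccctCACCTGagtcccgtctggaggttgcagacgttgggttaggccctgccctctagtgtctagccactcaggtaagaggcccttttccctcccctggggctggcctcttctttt
Krt18: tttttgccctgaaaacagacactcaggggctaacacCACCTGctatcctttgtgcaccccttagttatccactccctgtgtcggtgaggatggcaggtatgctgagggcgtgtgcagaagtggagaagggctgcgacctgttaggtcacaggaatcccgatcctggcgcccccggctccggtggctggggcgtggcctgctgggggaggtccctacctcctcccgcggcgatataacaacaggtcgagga
The E-box began 44 bases before the start in Krt7, 111 in Krt8 and 214 in Krt18. RefSeq promoters, from 250 bases before to 50 after the start, were at hand for 6 of the 10 genes (Krt7, Krt8, Krt14, Krt18, Dsp and Jup). Of these, 4 held the E-box (CAGGTG, either strand), the fourth being Dsp, just after its start, and 5413 of all 27025 promoters in the table held it. GGGCGG (the GC box, either strand) was in 3 of the 6 (Jup, Dsp and Krt7) and in 35.9% of all promoters. TATAAA (the TATA box, either strand) was in Krt8 alone among the 6, against 14.2% of all, and TGANTCA (AP-1), in 7.93% of all, was in none. Krt14 and Jup held no E-box in this window. A match is a run of letters and was not tested as a binding site.

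The total expected count lay between 32454121 and 38492149 per library, and 3 counts, the level under which a gene was treated as not detected, corresponded to 0.0743 to 0.0934 CPM (counts scaled to library size by TMM factors). This floor covers counting error only. Terc had 1 count in PD100 replicate 1 and 0 in the other 3 libraries. The mESC label was checked against 10 stem cell genes, whose summed TPM (transcript level per length, on 1 fixed total for all libraries) was 676 to 718 in PD100 and 927 to 972 in PD800, with Pou5f1 at 305 and 296 TPM in PD100 and 325 and 325 TPM in PD800. The call rule asked for a change of more than 2-fold together with an adjusted p below 0.01 in edgeR's quasi-likelihood test over all genes. It was met by 1202 genes (6.28%) in the higher and 1686 (8.81%) in the lower direction at PD800, so that 41.6% of calls were higher. Of the 10 stem cell genes, 4 were higher by that rule (log2 fold changes of 2.33 for Nanog, 2.06 for Esrrb, 2.84 for Klf4 and 2.23 for Tbx3) and Dppa3 was lower (-2.17). With limma on log2(TPM + 1), 24.4% of calls were higher, and the median of all genes moved from 0.01 to -0.12 on the log2 scale (-0.21 with a pseudocount of 0.1).

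The 6 keratins were all lower at PD800, by 11.3 to 43.0 times in CPM, and the desmosome genes were lower by less or not at all. The log2 fold changes of 8 of the 10 genes were past the call rule, in the lower direction, beside 8.81% of all tested genes. Since the genes were chosen on this contrast, nothing is read from that count. In 9 genes both PD800 libraries were below both PD100 libraries in CPM, an order found in 36.4% of all tested genes, and in 1, Dsg2, both were above, an order found in 37.4%. The median log2 fold change was -3.62 over the 10 genes and 0.01 over all tested genes. In bulk RNA, fewer cells that express these genes and less RNA in each cell cannot be told apart.

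**Figure D1:**
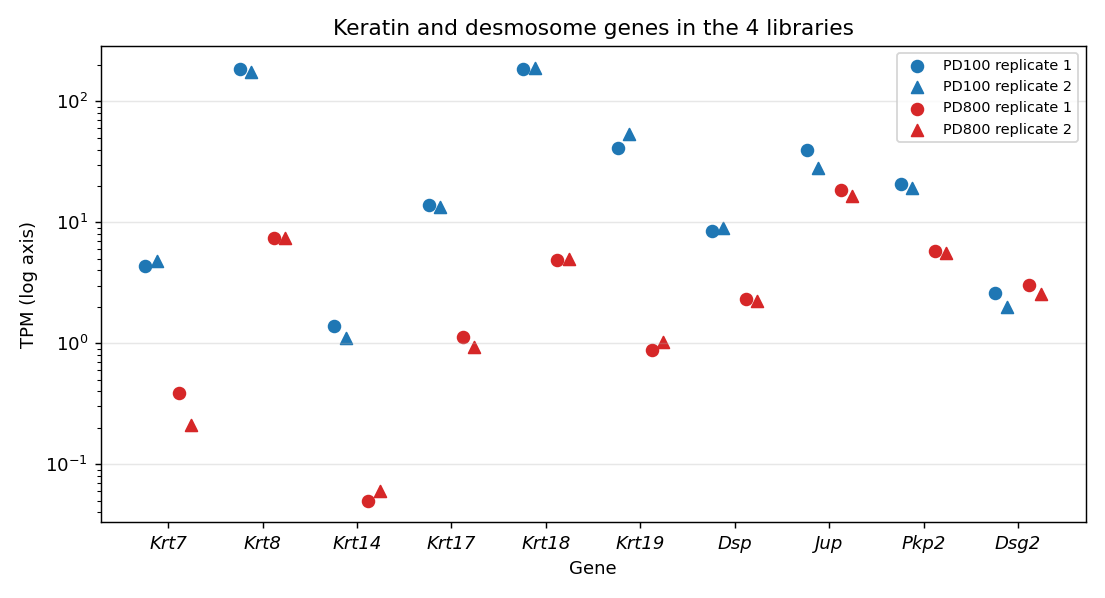
TPM of each of the 10 genes in each library, on a log axis, with 2 points per group (blue, PD100; red, PD800; circles, replicate 1; triangles, replicate 2). Krt8 and Krt18 went from above 175 TPM to below 8 TPM, while the 4 values of Dsg2 lay between 1.98 and 3.05 TPM and overlapped.

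Krt8, the type II partner of simple epithelia, lies on chromosome 15 of GRCm38 from 101996698 to 102004482 on the minus strand. Its level was 184 and 175 TPM in the PD100 libraries against 7.49 and 7.43 TPM in the PD800 libraries. The expected counts behind these were 15628 and 13784 at PD100 against 687 and 645 at PD800, a log2 fold change of -4.35 ± 0.09 (SE). The replicates lay close together beside a 20.4-fold difference in mean CPM. Among all genes in the files ordered by TPM, Krt8 stood at ranks 379 and 364 in PD100 cells and at ranks 5948 and 5781 in PD800 cells. A processed pseudogene, Krt8-ps, shares 98.6% identity with the transcript over 941 bases and drew at most 57.9 counts in a library. The number of reads that align to both is not known.

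Krt18, the type I partner of Krt8, lies close by on the opposite strand (chromosome 15, 102028180 to 102032027). It was at 186 and 190 TPM in PD100 cells against 4.88 and 4.98 TPM in PD800 cells. Counts were 11921 and 11303 against 337 and 326, with a log2 fold change of -5.02 ± 0.11 (SE), or 32.5 times in mean CPM. Krt18 was thus lower by more than its partner. The ratio of Krt8 to Krt18 in TPM was 0.987 and 0.922 in the PD100 libraries against 1.54 and 1.49 in the PD800 libraries, so that near equal levels gave way to an excess of the type II chain, and the groups did not overlap.

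Krt19, an unusually short type I keratin that lacks most of the tail, had the highest fold of the 10. Its level was 41.0 and 53.5 TPM at PD100 against 0.88 and 1.02 TPM at PD800. Counts were 2313 and 2415 against 48 and 54, a log2 fold change of -5.43 ± 0.18 (SE) and 43.0 times in mean CPM. The gene lies on chromosome 11 from 100140810 to 100148665 on the minus strand. The PD100 libraries differed more from each other in Krt19 than in Krt8 or Krt18, yet both stood far above both PD800 libraries.

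Krt7, a type II keratin of simple and glandular epithelia, lies on chromosome 15 from 101411043 to 101430313 on the plus strand. Counts were 734 and 672 in PD100 cells against 55 and 42 in PD800 cells, and the log2 fold change was -3.75 ± 0.13 (SE). In TPM it was at 4.34 and 4.79 against 0.39 and 0.21. The TPM values of the PD800 libraries were further apart than their counts, because the effective length RSEM assigned was 2538 bases in replicate 1 and 3820 bases in replicate 2. It was 3255 and 2963 bases in the PD100 libraries. Both scales put the PD800 libraries far below the PD100 libraries.

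Krt17 and Krt14 are type I keratins, Krt17 of skin appendages and injured or stressed epithelia and Krt14 of the basal layer of stratified epithelia. Krt17 (chromosome 11, 100256217 to 100261029, minus strand) was at 14.01 and 13.3 TPM in PD100 cells against 1.13 and 0.93 TPM in PD800 cells. Its counts, 1007 and 887 against 88 and 68, gave a log2 fold change of -3.49 ± 0.12 (SE). Krt17 was the keratin with the smallest fold of the 6. Krt14 (chromosome 11, 100203162 to 100207548, minus strand) was low throughout, with 102 and 76.7 counts at PD100 against 4 and 5 at PD800, or 1.39 and 1.10 against 0.05 and 0.06 TPM. Its log2 fold change of -4.16 ± 0.30 (SE) rests on those few counts and was -1.09 with limma on log2(TPM + 1), whose pseudocount is above its level at PD800. The Krt14 transcript shares 87.0% identity over 1285 bases with Krt16 and 89.1% over 957 bases with Krt17, and its PD100 count in replicate 2 is not a whole number, so a part of its reads was divided between genes. Counts of Krt7, Krt17, Krt18 and Krt19 were whole in each library, with no such division.

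Keratin TPM was summed over 52 type I and type II genes of the files, without Krt222. The level was 451 ± 6.93 TPM (SD, n = 2) in PD100 cells against 20.5 ± 0.226 TPM (SD, n = 2) in PD800 cells, 22.0 times lower. The type I sum was 21.3 times lower (266 ± 12.4 to 12.5 ± 0.389 TPM, SD, n = 2) and the type II sum 23.1 times lower (185 ± 5.37 to 7.99 ± 0.163 TPM, SD, n = 2). The ratio of type II to type I stayed within 0.616 to 0.733 in the 4 libraries, and the groups overlapped. The balance of the 2 types was thus nearly the same in both groups, although the pair Krt8 and Krt18 was not. Krt18 made up 41.8% of keratin TPM in both PD100 libraries against 24.0% and 24.1% in the PD800 libraries, whereas Krt8 went from 41.2% and 38.5% to 36.8% and 36.0%. Krt19 held 9.19% and 11.7% at PD100 against 4.33% and 4.94% at PD800. The 6 keratins together took 96.6% and 96.2% of keratin TPM in PD100 cells against 72.9% and 70.9% in PD800 cells, the rest being mostly Krt42.

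**Figure D2:**
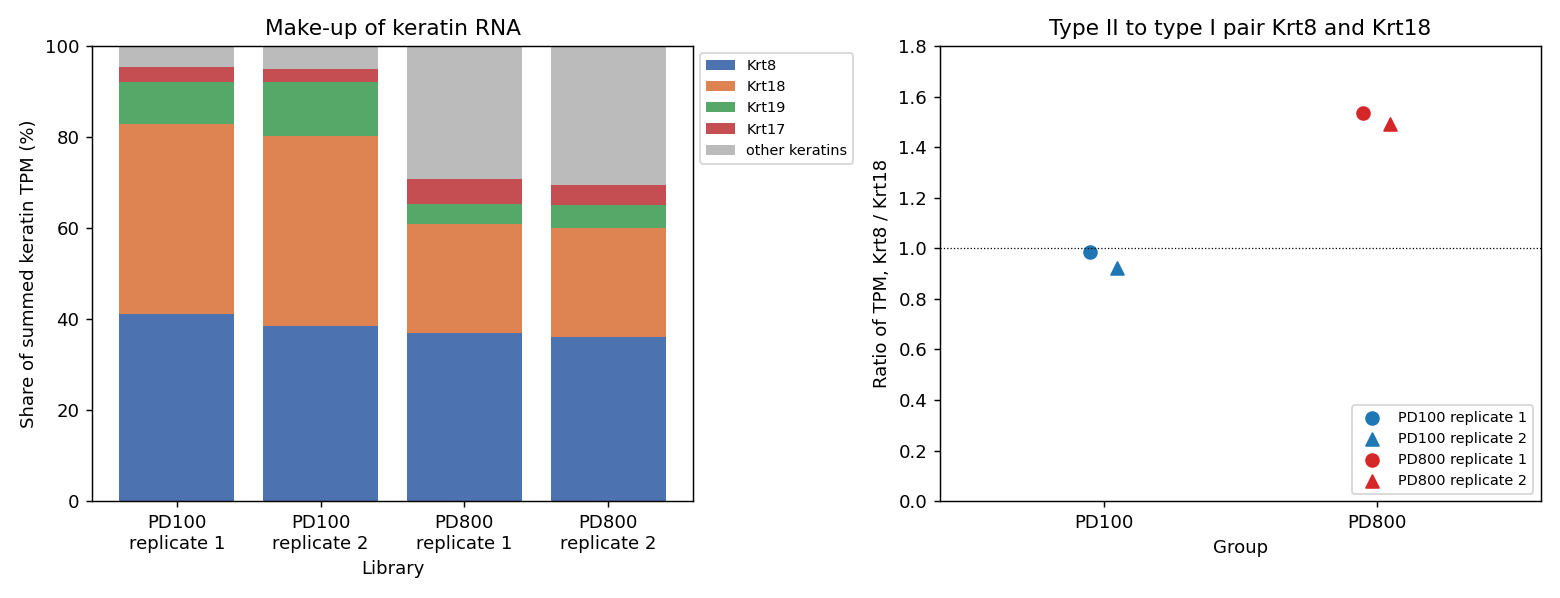
Left, share of summed keratin TPM (%) held by Krt8, Krt18, Krt19, Krt17 and all other keratins in each of the 4 libraries. Right, ratio of Krt8 to Krt18 TPM per library, with a dotted line at 1; the ratio was 0.987 and 0.922 at PD100 against 1.54 and 1.49 at PD800.

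Dsp encodes desmoplakin, the plakin that anchors keratin filaments to the desmosome (chromosome 13, 38151294 to 38198577, plus strand). It was at 8.46 and 8.95 TPM in the PD100 libraries against 2.33 and 2.25 TPM in the PD800 libraries. Expected counts were 3918 and 3569 against 1171 and 1002, with a log2 fold change of -1.68 ± 0.09 (SE). Desmoplakin RNA was thus 3.20 times lower in mean CPM, far less than the keratins it binds. The gene Gm10129 shares 499 bases with Dsp at 100% identity and drew at most 10.5 counts.

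Pkp2 encodes plakophilin 2, the armadillo protein of simple epithelia and heart (chromosome 16, 16213318 to 16272712, plus strand). Plakophilin 2 RNA was at 20.9 and 19.4 TPM at PD100 against 5.80 and 5.58 TPM at PD800. Counts of 2954 and 2509 against 878 and 805 gave a log2 fold change of -1.58 ± 0.08 (SE). Dsp and Pkp2 were thus lower by nearly the same factor, and in neither did the groups overlap.

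Jup encodes plakoglobin, an armadillo protein shared by desmosomes and adherens junctions (chromosome 11, 100368958 to 100397763, minus strand). It was at 39.8 and 28.4 TPM in PD100 cells against 18.7 and 16.6 TPM in PD800 cells. Its counts were 5484 and 3666 against 2793 and 2301, and the log2 fold change was -0.72 ± 0.12 (SE), under the 2-fold limit of the call rule. The PD100 libraries stood further apart than for Dsp or Pkp2, and the lower of them was still above both PD800 libraries. Jup lies on the same stretch of chromosome 11 as Krt14, Krt17 and Krt19.

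Dsg2 encodes desmoglein 2, the desmosomal cadherin of simple epithelia, which mESCs also make (chromosome 18, 20558074 to 20604521, plus strand). It was at 2.62 and 1.98 TPM in PD100 cells against 3.05 and 2.56 TPM in PD800 cells. Counts were 725 and 507 against 723 and 624, and the groups overlapped in both units. Scaled by the TMM factors, Dsg2 was at 17.96 and 15.2 CPM against 20.1 and 19.4 CPM, which do not overlap, with a log2 fold change of 0.25 ± 0.11 (SE). Dsg2 was the only one of the 10 genes whose log2 fold change was above 0, and it stayed between 0.12 and 0.38 under each alternative tried. The antisense gene Gm16090 overlaps Dsg2 and drew at most 3.27 counts, and strand was not used.

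Because the 4 genes moved by different amounts, their proportions differed between the groups. Their summed level was 71.7 and 58.7 TPM at PD100 against 29.9 and 27.0 TPM at PD800, 2.30 times lower in the mean. Dsg2 held 3.65% and 3.37% of that sum at PD100 against 10.2% and 9.49% at PD800. The ratio of plakoglobin to desmoplakin was 4.70 and 3.17 in the PD100 libraries against 8.02 and 7.38 in the PD800 libraries.

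**Figure D3:**
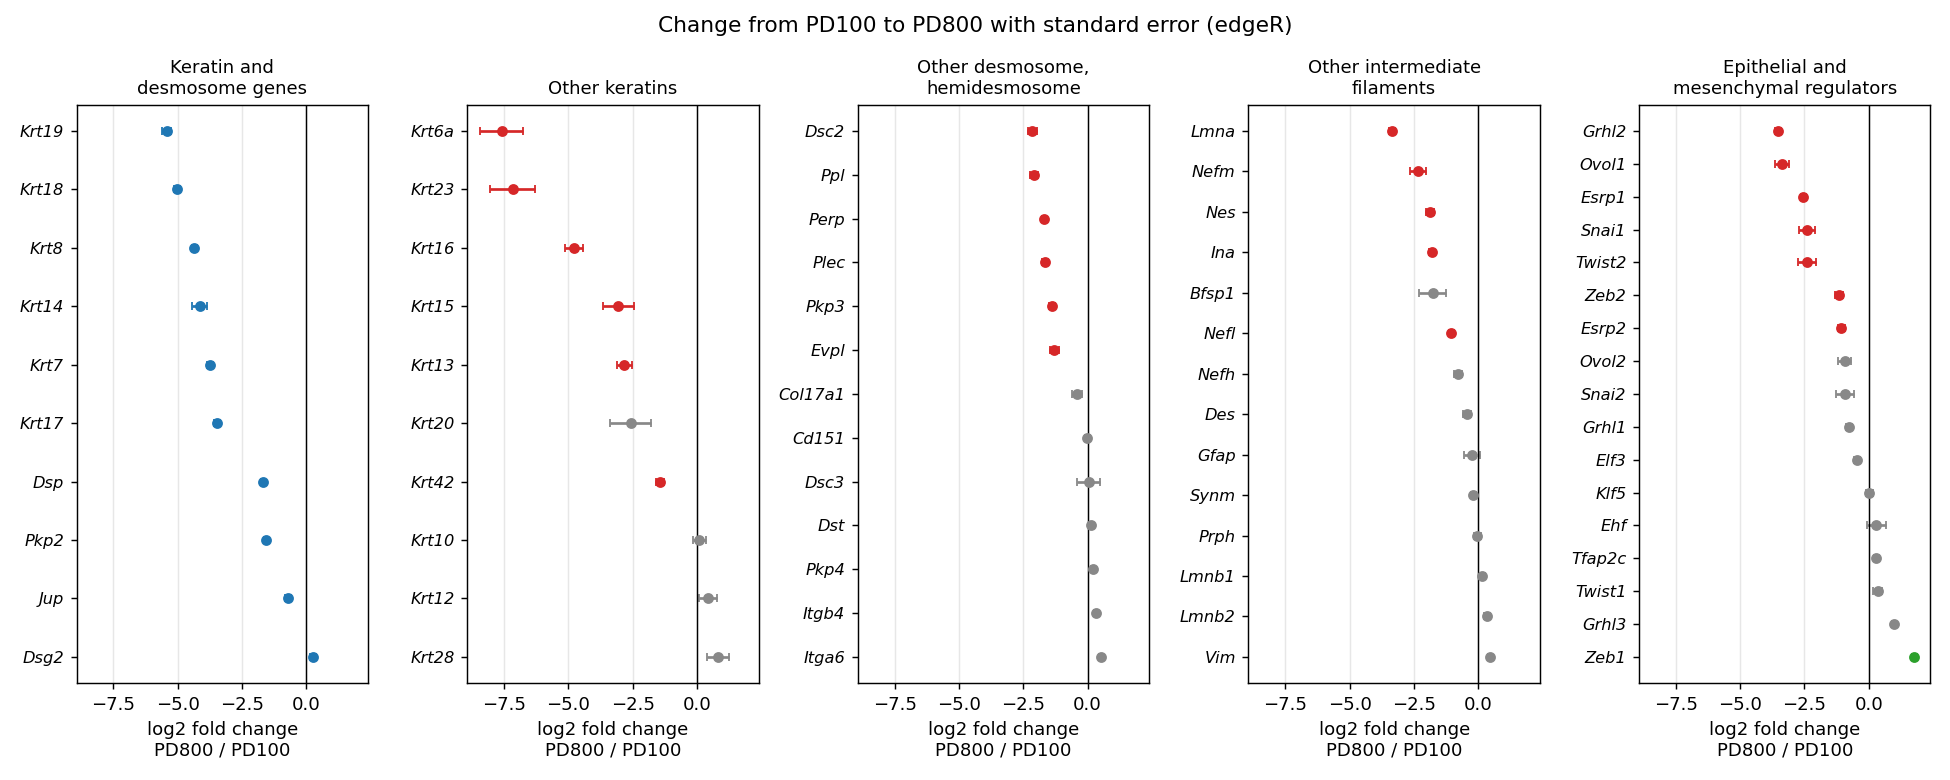
Log2 fold change (PD800 over PD100, edgeR) with standard error for the 10 genes (blue) and for the tested genes of the other keratin, junction, intermediate filament and regulator lists (red, called lower; green, called higher; grey, not called). Both PD800 libraries had 0 counts for Krt6a and Krt23, so their plotted values depend on the prior count; Zeb1 is the only gene in green.

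The rest of the keratin family was examined as a list of 23 further type I and 24 type II genes, of which 46 were in the files. Krt222 was also tested but was not on the list (log2 fold change 0.08, named after its value was seen). Only 10 of the 46 passed the filter on low counts; the other 36 reached at most 14 counts in any library, and 12 had 0 counts in all 4. Of the 10 tested, 6 were lower (Krt13, Krt15, Krt16, Krt23, Krt42 and Krt6a), 0 were higher and 4 were not called, beside 8.81% lower and 6.28% higher over all tested genes. Krt15, with at most 16 counts, had an adjusted p = 0.00839 by edgeR, and it was no longer called without PD100 replicate 2 (adjusted p = 0.0128), PD800 replicate 1 (0.0515) or PD800 replicate 2 (0.0228). Of the 6 lower keratins, all but Krt42 had fewer than 10 counts in both PD800 libraries, so that they passed the filter through PD100 alone and could hardly have come out otherwise, and nothing is read from the count. With at least 10 counts asked of every library, 1 was lower, Krt42.

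Krt42, a type I keratin of the nail unit, was the most abundant of the other keratins, at 10.8 and 12.1 TPM in PD100 cells against 3.88 and 4.49 TPM in PD800 cells (log2 fold change -1.43 ± 0.16 SE, adjusted p = 0.00109 by edgeR). Krt16, known for hyperproliferative epidermis, fell from 102 and 110 counts to 4 and 3 (log2 fold change -4.77 ± 0.34 SE). Krt13, of mucosal epithelia, fell from 63 and 61 counts to 8 and 8 (log2 fold change -2.83 ± 0.29 SE). Krt6a, a type II keratin that partners Krt16 and Krt17, had 25.9 and 23.9 counts at PD100 against 0 in both PD800 libraries. That was at least 7.71-fold lower against the mean floor of the PD800 libraries. Counts of Krt6a and Krt16 were not all whole, so a part of their reads was divided with similar genes. Krt23, named after its values were seen, had 20 and 17 counts against 0 and 0, at least 5.68-fold lower. No adjusted p is given for Krt16, Krt13, Krt6a and Krt23, which passed the filter through PD100 alone. Krt10, the type I keratin of suprabasal epidermis, was not called, with 32 and 23 counts against 28 and 26 (log2 fold change 0.09 ± 0.26 SE, adjusted p = 0.809).

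Among 20 further genes of desmosomes and hemidesmosomes in the files, 13 were tested, of which 6 were lower and 0 higher, with a median log2 fold change of -0.42, beside 8.81% lower and a median of 0.01 over all tested genes. The 6 were the cadherin Dsc2, the plakophilin Pkp3, the plakins Evpl, Ppl and Plec, and Perp, a membrane protein of the desmosome. Dsc2, desmocollin 2, a partner of desmoglein 2, fell from 475 and 313 counts to 91 and 71 (log2 fold change -2.16 ± 0.17 SE, adjusted p = 0.000302). Perp fell from 40.3 and 39.1 TPM to 10.6 and 10.2 TPM (log2 fold change -1.70 ± 0.08 SE, adjusted p = 7.1e-05). Plec, plectin, which links keratin filaments to hemidesmosomes, fell by 1.65 ± 0.12 (SE) on the log2 scale (adjusted p = 0.000254). Periplakin (Ppl), envoplakin (Evpl) and Pkp3 fell by 2.10, 1.29 and 1.38 on that scale. With limma on log2(TPM + 1) Ppl (-0.89) and Evpl (-0.84) were under 2-fold, and 4 genes of the list were lower.

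Other junction genes with high levels did not pass the call rule. The laminin receptor subunit Itga6 was at 39.8 and 40.1 TPM against 48.9 and 48.2 TPM (log2 fold change 0.52 ± 0.09 SE, adjusted p = 0.00482, under 2-fold). Pkp4, dystonin (Dst) and the tetraspanin Cd151 had log2 fold changes of 0.22, 0.13 and -0.02, with adjusted p = 0.0445, 0.295 and 0.910.

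Outside the keratins, 5 of 14 tested intermediate filament genes were lower and 0 were higher (median log2 fold change -0.61), beside 8.81% lower over all tested genes. Of the 5 lower, Nefm, named after its values were seen, had 51.9 and 36.9 counts at PD100 against 9.1 and 7.26 at PD800. Nefm thus passed the filter through PD100 alone, so its call could hardly have come out otherwise. With the filter's minimum count asked of every library, 4 were lower. Lamin A/C (Lmna), the nuclear lamin that rises with differentiation, fell from 36.7 and 40.7 TPM to 3.50 and 3.61 TPM (log2 fold change -3.35 ± 0.11 SE, adjusted p = 3.8e-05). The B-type lamins Lmnb1 and Lmnb2, which every cell makes, had log2 fold changes of 0.17 and 0.34 (adjusted p = 0.237 and 0.0466). Nestin (Nes), alpha-internexin (Ina) and the neurofilament light chain (Nefl) fell by 1.88, 1.81 and 1.04 on the log2 scale, and Nefl, at -0.99 without PD800 replicate 1, was then under 2-fold. Vimentin (Vim), the filament of mesenchymal cells, was at 92.8 and 119 TPM against 108 and 124 TPM, and its log2 fold change of 0.45 ± 0.08 SE was under 2-fold (adjusted p = 0.00635). The ratio of summed keratin to vimentin TPM was 4.81 and 3.81 in PD100 cells against 0.188 and 0.166 in PD800 cells.

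Factors known to keep epithelial or mesenchymal state were examined next. Of 17 tested, 7 were lower, 1 was higher and 9 were not called, with a median log2 fold change of -0.92, beside 8.81% lower and 6.28% higher over all tested genes. Without PD800 replicate 2, 4 were lower, and without PD100 replicate 1 or PD800 replicate 2, 2 were higher. Of the 7 lower, Ovol1 and Twist2 had fewer than 10 counts in both PD800 libraries and passed the filter through PD100 alone. Their calls could hardly have come out otherwise. Grhl2, which activates epithelial junction genes, fell from 2109 and 1781 counts to 177 and 136 (log2 fold change -3.52 ± 0.10 SE, adjusted p = 3.1e-05). The epithelial splicing factors Esrp1 and Esrp2 fell by 2.54 and 1.06 on the log2 scale (adjusted p = 4.9e-05 and 0.00115). The epithelial factor Ovol1 fell by 3.37 on that scale. With limma on log2(TPM + 1) Ovol1, at -0.56, and Esrp2, at -0.99, were under 2-fold. Esrp2 was also under 2-fold without PD100 replicate 1 (-0.92) or PD800 replicate 2 (-0.98).

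Among the repressors of the Snai and Zeb families, known to bind E-boxes with these letters, Zeb1 rose from 245 and 172 counts to 699 and 611 (log2 fold change 1.77 ± 0.11 SE, adjusted p = 0.000147). Zeb2 fell by 1.17 ± 0.16 (SE, adjusted p = 0.00215), and Snai1 fell by 2.41 ± 0.31 (SE, adjusted p = 0.00182), from 114 and 62 counts to 15 and 15. Neither Zeb2 nor Snai1 was called with limma on log2(TPM + 1) (adjusted p = 0.0119 and 0.0115). Zeb2 was also not called with limma on log2(TPM + 0.1) (adjusted p = 0.0133). It lost its call without PD800 replicate 1 (log2 fold change -1.172) or replicate 2 (-1.165) as well. Snai2, named after its values were seen, was not called, with 19 and 16 counts against 10 and 7 (log2 fold change -0.92 ± 0.35 SE, adjusted p = 0.0803). Binding was not measured, and the part of these factors in the keratin values was not tested. Grhl3 was at 0.99 ± 0.08 (SE) on the log2 scale, just under 2-fold (adjusted p = 0.000302) and past it without PD100 replicate 1 or PD800 replicate 2, while Klf5 was at 0.02 (adjusted p = 0.925).

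The keratin values moved with markers of primitive endoderm, the extraembryonic lineage that lines the blastocyst cavity and makes Krt8, Krt18 and Krt19. The 14 markers summed to 511 to 515 TPM in PD100 cells against 43.7 to 44.2 TPM in PD800 cells, and 13 of 14 tested were lower, with a median log2 fold change of -3.92, beside 8.81% lower over all tested genes. None was at 0 counts in any library, although Foxa2 had 230 and 147 counts at PD100 against 1 and 1 at PD800. Foxa2, Hnf4a and Sox17 had fewer than 10 counts in both PD800 libraries and passed the filter through PD100 alone. Their lower calls could hardly have come out otherwise. The log2 fold changes of the list ran from -7.27 for Foxa2 to -1.07 for Amn, named after its values were seen. Between them were -6.03 for Sox17, -4.93 for Pdgfra, -4.42 for Col4a1, -2.88 for Gata4, -2.76 for Lama1 and -2.72 for Sparc. The part of these markers in the keratin result was not tested.

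Markers of trophoblast, epidermis and fibroblasts were also summed, and their calls stand beside 8.81% lower and 6.28% higher over all tested genes. The 12 trophoblast markers summed to 10.2 to 12.4 TPM at PD100 against 6.4 to 6.9 TPM at PD800, with 3 of 9 tested lower and 1, Eomes, higher (log2 fold change 1.98 ± 0.17 SE, adjusted p = 0.000414). Of the lower ones, Hand1 fell from 193 and 151 counts to 28 and 14 and Ascl2 from 215 and 177 to 66 and 71. Without PD800 replicate 1, 1 was lower, and with the replicate block 5 were. With no filter 6 were lower, and with limma on log2(TPM + 1) 1 was lower and 0 were higher, Eomes being at 0.81. Prl3d1 had 0 counts in all 4 libraries and Tpbpa at most 1. The 10 epidermis markers summed to 6.1 to 7.1 TPM and 1.5 to 2.0 TPM, with 2 of 5 tested lower, and 1 without PD100 replicate 2, PD800 replicate 1 or PD800 replicate 2, with DESeq2, with at least 10 counts in every library or with limma at either pseudocount. Of the 2 lower epidermis markers, Krt15 passed the filter through PD100 alone, so its call could hardly have come out otherwise. The defining epidermal genes Krt5 and Trp63 had at most 6 and 3 counts in any library. Krt14 and Krt17 RNA was thus present with Krt5, the usual partner of Krt14, near 0. The 10 fibroblast markers, which would mark leftover feeder cells, summed to 17.1 to 17.9 TPM and 5.5 to 5.8 TPM, with 4 of 8 tested lower, and 2 with limma on log2(TPM + 1). Col1a1 fell from 526 and 815 counts to 70 and 81 and Col1a2 from 750 and 933 to 167 and 147, while Lum and Fap had at most 1 and 5 counts in any library. The part of these cell types in the result was not tested.

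The 10 genes lie on 5 chromosomes. Krt7, Krt8 and Krt18 are in the type II keratin cluster of chromosome 15, between 1.87 and 2.47 Mb from its last annotated base, and Krt14, Krt17 and Krt19 are in the type I cluster of chromosome 11, with Jup further along outside the cluster. The 40 tested genes nearest to each, apart from the 10 themselves, are given beside the shares over all tested genes, 8.81% lower and 6.28% higher. Around Krt8 their median log2 fold change was -0.25 with 4 of 40 lower, 1 of them the keratin Krt6a, and 1 higher. Around Krt17 the median was -0.41 with 10 of 40 lower, 5 of which were keratins, and 0 higher. Around Dsp, Pkp2 and Dsg2 the medians were 0.11, 0.14 and 0.17, with 2, 1 and 1 of 40 lower and 2, 1 and 3 higher. Around Jup the median was -0.47, with 10 of 40 lower, 4 of which were keratins, and 0 higher. In the last 5 Mb of chromosome 15, 96 tested genes had a median of -0.19, with 5 lower and 1 higher, beside the same shares over all genes. Krt7, Krt8 and Krt18, which also lie there, are left out of these values. The last 5 Mb of chromosome 11 held 118 tested genes, with a median of 1.19, 4 lower and 59 higher, and Krt14, Krt17, Krt19 and Jup lie 21.6 to 21.8 Mb from that end. Whether position has a part in the values of the 10 genes was not tested.

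**Figure D4:**
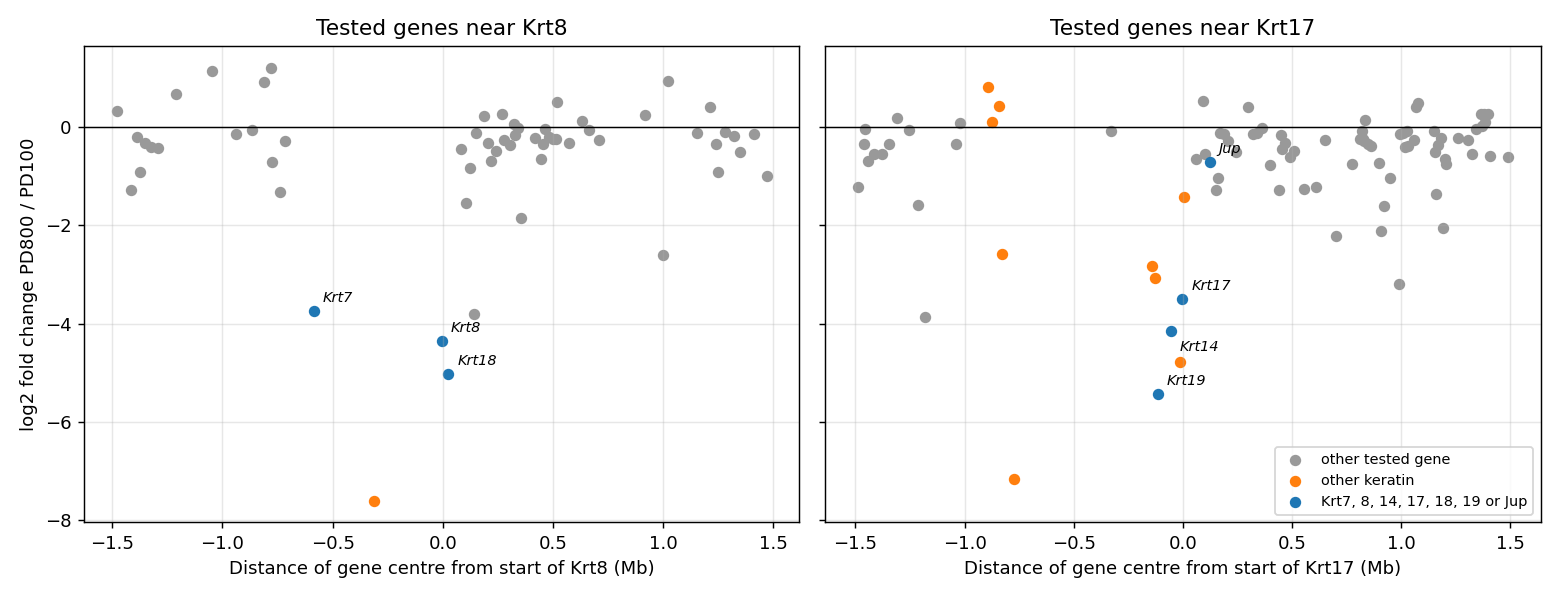
Log2 fold change (PD800 over PD100) of the tested genes within 1.5 Mb of Krt8 (left) and Krt17 (right) against the distance in Mb of each gene's centre from the start of Krt8 or Krt17 (blue, genes of the 10; orange, other keratins; grey, other genes). The medians of the 40 nearest genes were -0.25 around Krt8 and -0.41 around Krt17, whose own values were -4.35 and -3.49. Krt222 is drawn in grey on the right.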

How the data were processed

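RNA of 2 PD100 and 2 PD800 libraries was analysed. Per the submitters' processing notes, the authors aligned reads to mm10 with STAR 2.5.3a, quantified genes with RSEM 1.3.0 and used DESeq2 1.18.1; the annotation release is not given in the sources used here. The files as deposited by the authors hold, per gene and library, an expected count (reads that align to several genes are divided among them, with no scaling for depth), TPM (scaled for gene length to a fixed total) and the effective length in bases. Deposited FPKM values were not used. The labels name total RNA, whereas the study describes mRNA sequencing. Strand was not used.

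The main test was the quasi-likelihood test of edgeR 4.0.16 (R 4.3.3) on counts rounded to whole numbers, with TMM factors, genes kept by filterByExpr (minimum count 10) and Benjamini-Hochberg adjustment over the 19148 genes kept. The procedure was tested on simulated data. Coordinates came from GENCODE M21 (GRCm38), which held 53274 of the 53379 identifiers. Similar transcripts were sought with blastn 2.17.0 (at least 85% identity over 300 bases). Totals per library and their floor are given above, and where both PD800 libraries were at 0 a fold is a bound against that floor.

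The genes described and the comparison lists were chosen with earlier results of these data known. Named genes are the 10 genes themselves and from each other list up to 6 with the highest mean TPM and up to 6 called genes with the largest log2 fold changes and a mean of at least 1 CPM. Genes given only to list a count or a marker near 0 were named after their values were seen. Results were recomputed with DESeq2 1.42.0, its size factors alone, no filter, at least 10 counts in every library, a replicate block, limma 3.58.1 on log2(TPM + 1) and log2(TPM + 0.1) and with each library left out. Krt85 and Eppk1 were not analysed here.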

Additional observations from a re-analysis of the deposited data

How the results depend on the processing

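None of the 10 genes changed sign under any alternative. In each that kept every library 8 were past the call rule, except that 7 were with at least 10 counts in every library, a filter that removes Krt14. Over all genes, those called lower were fewest with limma on log2(TPM + 1), 920 of 19148, and most with no filter, 2237 of 32384. The 10 genes were chosen on this contrast, so nothing is read from their count. Krt14 and Krt7 moved most, to -1.09 and -2.10 on the log2 scale with limma on log2(TPM + 1). Of all genes, 297 were higher and 920 lower with limma on log2(TPM + 1), and 533 higher with log2(TPM + 0.1). Other keratins called lower numbered 2 with limma on log2(TPM + 1) and 1 with at least 10 counts in every library, a filter that removes the 5 with fewer than 10 counts at PD800. Regulators called lower numbered 2 with limma on log2(TPM + 1), between 4 and 7 with 1 library left out, and those called higher between 1 and 2 with 1 library left out. Where a cause is not given, it was not tested. Krt15 also lost its call with DESeq2 (adjusted p = 0.0397). Groups of 2 allow no check for a library that stands apart within its group.

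With the replicate block, 1461 of 19148 genes were higher and 1956 lower. Past the call rule were 8 of the 10 genes, from which nothing is read. The labels give the same numbers in both groups without saying that they mark a shared culture or day, and the deviations of same-numbered libraries correlated at 0.265 over genes, so the libraries are treated as sharing a number only.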
